A study of Mus musculus with 8 samples.

Results

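The genes of antigen presentation were followed in mouse bone marrow multipotent mesenchymal stem/stromal cells (MSCs), cultured adherent marrow cells with the capacity to become osteoblasts, adipocytes or chondrocytes. Members were all genes of the RPKM table whose symbol starts with H2-, the prefix of the mouse major histocompatibility complex (MHC), and 15 genes named by function: *B2m*, *Tap1*, *Tap2*, *Tapbp*, *Tapbpl*, *Erap1*, *Psmb8*, *Psmb9*, *Psmb10*, *Psme1*, *Psme2*, *Nlrc5*, *Ciita*, *Cd74* and *Cd1d1*. This gave 58 of the 24346 genes, of which 44 lie on chromosome 17. RNA was measured in 8 libraries, 2 in each of 4 groups. Undifferentiated WT MSCs, differentiating WT MSCs, undifferentiated *Dnmt3l* KO MSCs and differentiating *Dnmt3l* KO MSCs were all of C57BL/6 background and at passage 4. Growth medium held 20% fetal bovine serum. Differentiating cells had spent 3 days in osteogenic induction medium with 10% serum, 0.1 μM dexamethasone, 10 mM β-glycerophosphate and 50 μM ascorbic acid 2-phosphate, so that the drug, the serum and the state changed together. The KO allele is a germline mutation, and MSCs of several adult female KO mice, or of their WT littermates, were mixed by genotype after depletion of CD11b and CD45 positive cells. No source says whether the 2 libraries of each group were separate cultures, so that p-values measure only the spread between these libraries, which may be technical.

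Each value is an RPKM, a read number divided by transcript length and library size, and was estimated to rest on 48.2 to 66.7 M scaled reads per library. *Dnmt3l* was at 1.56, 1.09, 0.845 and 0.830 RPKM in the WT libraries and is listed at 0 in all 4 KO libraries. All 10 MSC markers were above the expression minimum, and their summed level was 1363 to 3917 RPKM. The 17 leukocyte markers summed to 10.4 to 38.2 RPKM, 11 of them stayed under 1 RPKM in every library and 3 were at 0. In bulk RNA, fewer cells of a type and less RNA per cell cannot be told apart. Fold changes are differences of log2(RPKM + 0.1), which understates the change of low genes. A gene was called when its p-value, from limma over the 15342 genes that averaged 0.1 RPKM or more, and adjusted with the Benjamini-Hochberg method, was under 0.05. A differentially expressed gene (DEG) was a called gene whose log2 fold change was above 1 or below -1.

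MHC class I molecules display peptides of cytosolic proteins to CD8 T cells. Proteasomes, in which inducible subunits can replace the constitutive ones, make the peptides, the TAP transporter carries them into the endoplasmic reticulum, tapasin holds the transporter to the empty heavy chain, and the heavy chain is stable only with beta-2 microglobulin. Class II molecules display peptides from endosomes to CD4 T cells and are made mainly by dendritic cells, macrophages and B cells. NLRC5 activates class I promoters and CIITA class II promoters, and interferon-gamma raises both, while stromal cells without it carry class I at a modest level and little class II.

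The promoters of class I genes are shown because many members rose with induction and because classical class I promoters hold a known block of boxes, among them a CREB/ATF element (TGACG) and an NF-Y element (CCAAT). *B2m* and *H2-K1* have these 2 elements in that order and close together, whereas *H2-T22* and the region between *Psmb9* and *Tap1* hold both but not in that arrangement. The windows are the 250 bases before the RefSeq start on GRCm38.p6, the assembly of mm10. Capitals mark the TGACG element, the CCAAT element and the interferon response motif GAAANNGAAA, each on either strand. The first line is *B2m* (chr2:122147437-122147686, plus strand), the second *H2-K1* (chr17:34000348-34000597, minus strand) and the third *H2-T22* (chr17:36042743-36042992, minus strand). The last is the 225 bases between the divergent starts of *Psmb9* and *Tap1* (chr17:34187331-34187555), read on the plus strand, so that *Tap1* starts at its right end and *Psmb9* at its left end.
B2m: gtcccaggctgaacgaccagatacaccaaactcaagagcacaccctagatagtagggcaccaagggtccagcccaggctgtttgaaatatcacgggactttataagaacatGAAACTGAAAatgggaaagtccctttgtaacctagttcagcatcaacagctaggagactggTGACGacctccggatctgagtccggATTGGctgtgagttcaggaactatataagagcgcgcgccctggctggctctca
H2-K1: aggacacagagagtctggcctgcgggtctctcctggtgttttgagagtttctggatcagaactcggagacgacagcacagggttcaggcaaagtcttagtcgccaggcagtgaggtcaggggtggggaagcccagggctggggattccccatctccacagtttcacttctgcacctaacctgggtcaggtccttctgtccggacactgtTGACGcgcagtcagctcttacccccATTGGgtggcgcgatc
H2-T22: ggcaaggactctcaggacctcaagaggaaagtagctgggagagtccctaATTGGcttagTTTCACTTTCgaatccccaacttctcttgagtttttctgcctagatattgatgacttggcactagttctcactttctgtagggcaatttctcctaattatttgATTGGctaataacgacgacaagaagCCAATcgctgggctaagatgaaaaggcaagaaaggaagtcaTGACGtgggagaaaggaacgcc
Tap1-Psmb9: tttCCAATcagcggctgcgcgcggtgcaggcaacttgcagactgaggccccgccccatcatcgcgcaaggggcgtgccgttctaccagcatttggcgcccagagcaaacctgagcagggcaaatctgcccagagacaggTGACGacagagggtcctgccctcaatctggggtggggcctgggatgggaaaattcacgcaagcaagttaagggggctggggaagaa

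TGACG followed after 18 to 22 bases by CCAAT in either orientation, a spacing chosen after these promoters had been read, stood in 0.347% of 32851 RefSeq promoters. Counted by gene and not by promoter, it was found in 6 of the 40 members with a promoter in the table, namely *B2m*, *H2-D1*, *H2-K1*, *H2-M3*, *H2-Q7* and *H2-Aa*. The 23 tested members with a promoter have 27 promoters. CCAAT alone stood in 33.8% of all promoters and in 20 of the 27 (74.1%), which belong to 18 of the 23 members. TGACG stood in 17.8% of all promoters and in 12 of the 27 (44.4%), which belong to 10 of the 23. GAAANNGAAA, found in 2.98% of all promoters, stood in 3 of the 27 (11.1%), those of *B2m*, *H2-T22* and *H2-T23*. In *B2m* it covers positions -139 to -130 from the start. A match describes these letters and is no proof of a bound site. Only exact letters were counted, so a promoter without a match may still hold a variant of the element.

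Of the 58 members, 35 passed the expression minimum and were tested. The other 23 did not exceed 0.204 RPKM in any library, and 7 were at 0 in all. In undifferentiated MSCs the members were mostly lower in KO than in WT: 12 of 35 were called lower and 1 higher, where 17.5% of all genes tested were called lower and 14.7% higher. Just 1 of them, *Psmb9*, was a DEG, as were 1.7% of all genes. Their median log2 fold change was -0.25, against -0.003 over all genes. The lower members were *H2-K1*, *H2-D1*, *H2-T23*, *H2-M3*, *Cd1d1*, *Tapbp*, *Erap1*, *Psmb8*, *Psmb9*, *Nlrc5*, *H2-Ab1* and *H2-DMb1*. The count fell to 8 without replicate 2 of undifferentiated WT MSCs and to 8 without replicate 1 of undifferentiated KO MSCs.

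Differentiating MSCs showed the opposite order for part of these genes. There 9 of 35 members were called higher in KO and 3 lower, where 17.8% of all genes were called higher and 22.9% lower. The higher members were *B2m*, *H2-D1*, *H2-T23*, *H2-M3*, *H2-K2*, *Cd1d1*, *Tapbp*, *Psme1* and *H2-Ke6*, and the lower ones *H2-T22*, *H2-Ab1* and *H2-DMb1*. *H2-K2*, a low gene annotated as a transcribed pseudogene and not detectable before induction, was the 1 DEG, against 3.3% of all genes. It passed the expression minimum only through differentiating KO MSCs, where its mean was 0.5625 RPKM. Its mean was 0.1205 RPKM in differentiating WT, 0.009 in undifferentiated WT and 0 in undifferentiated KO MSCs. The filter therefore favoured its calls against the other groups, which are no separate support. The median over the members was 0.11 on the log2 scale (-0.007 over all genes), and it came to -0.006 without replicate 1 of differentiating KO MSCs. Leaving out replicate 1 of differentiating WT MSCs left 7 calls, 5 of them higher. In a fit to the 4 differentiating libraries alone *B2m* (adjusted p = 0.114), *H2-D1* (0.126), *H2-T22* (0.0533) and *Psme1* (0.0679) were no longer called.

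Members rose with induction in both genotypes. In WT MSCs 17 of 35 were called higher and 1 lower, where 31.6% of all genes were called higher and 32.8% lower, and 4 were DEGs (14.3% of all genes). KO MSCs had 24 of 35 called higher and 2 lower, where 36.4% of all genes were called higher and 36.6% lower, and 14 were DEGs (22.9% of all genes). Over the members the median log2 fold change was 0.39 in WT and 0.85 in KO MSCs, against 0 over all genes in either genotype. These medians depend on the settings: with pseudocount 1 they were 0.22 and 0.61, with no expression minimum, which adds members near 0, 0.33 and 0.36, and over members with a mean of at least 1 RPKM 0.58 and 0.88. These 2 inductions share no library, but each shares libraries with the genotype comparisons above. The difference between the inductions was tested as the interaction of genotype and induction: 13 of 35 members rose more in KO than in WT and 2 (*H2-T22* and *H2-M1*) had a lower change in KO, where 19.4% and 20% of all genes were called in these directions. The interaction exceeded 1 or fell below -1 on the log2 scale for 5 called members (6.17% of all genes).

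**Figure D1:**
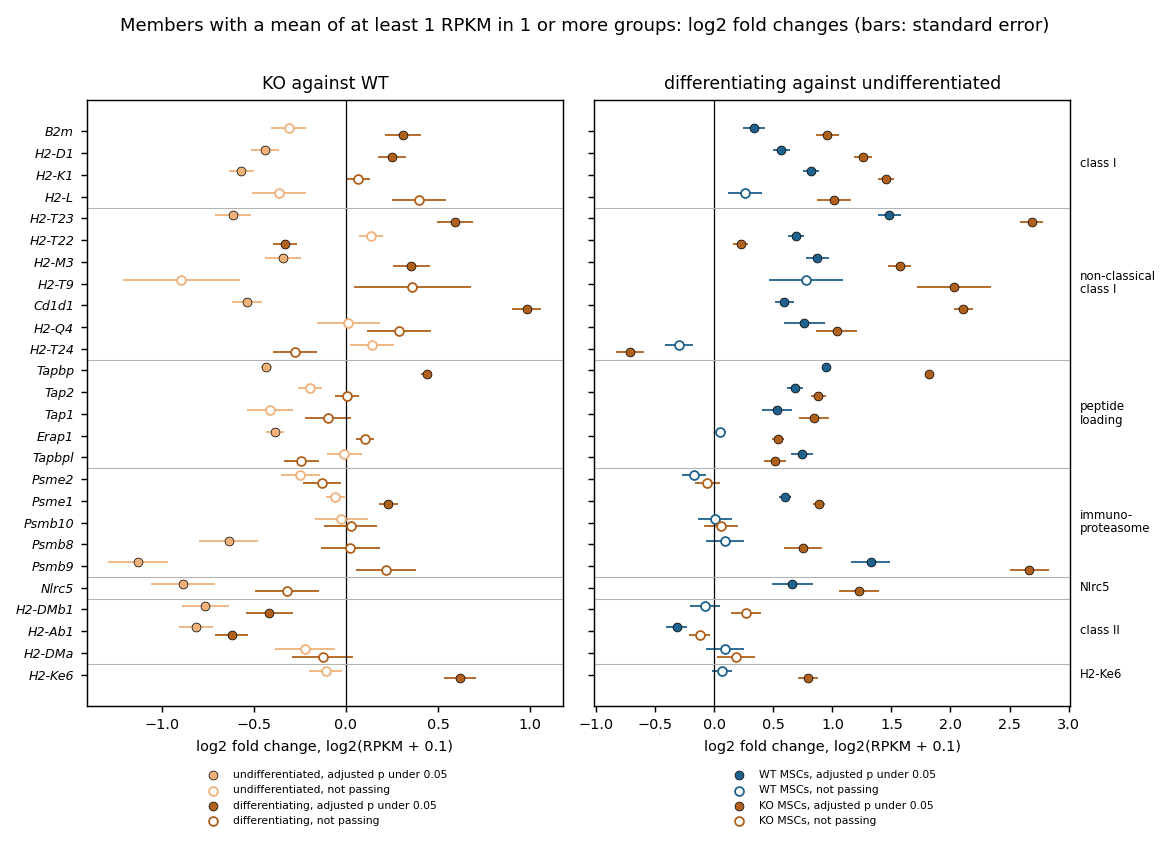
Log2 fold changes of the 26 members with a mean of at least 1 RPKM in 1 or more groups, on the log2(RPKM + 0.1) scale, for KO against WT (left) and for differentiating against undifferentiated cells (right); bars are standard errors, and filled points passed an adjusted p of 0.05. In the left panel most class I, loading and immunoproteasome points of undifferentiated cells lie left of 0, and in the right panel most KO points lie to the right of the WT points.

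The classical class I heavy chains followed this pattern. *H2-K1* (chr17:33996017-34000347 in mm10), a main peptide receptor of the cell surface, was at 37.6 and 38.0 RPKM in undifferentiated WT MSCs, 25.6 and 25.3 in undifferentiated KO MSCs, 65.3 and 68.1 in differentiating WT MSCs and 74.9 and 65.0 in differentiating KO MSCs. Its groups did not overlap before induction and overlapped after it. In KO it was 1.48-fold lower before induction (log2 fold change -0.57, standard error 0.07, adjusted p = 0.00267), and afterwards the log2 difference was 0.07 with an adjusted p of 0.467. Its rise with induction was 0.82 in WT and 1.45 in KO MSCs on the log2 scale, a difference of 0.63 (standard error 0.09, adjusted p = 0.00426).

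*H2-D1* (chr17:35262730-35267499), the second heavy chain, was at 50.7 and 52.0 RPKM in undifferentiated WT MSCs and 37.7 and 37.9 RPKM in undifferentiated KO MSCs. After induction it was at 73.2 and 79.1 RPKM in WT and 97.5 and 83.8 RPKM in KO MSCs, so that the genotypes stood in the opposite order with no overlap in either state. The log2 difference of KO from WT was -0.44 (adjusted p = 0.00874) before and 0.25 (adjusted p = 0.0428) after induction, and the interaction was 0.69 (standard error 0.11, adjusted p = 0.00487). The call after induction was lost without replicate 1 or 2 of differentiating WT MSCs (adjusted p = 0.181 and 0.0791) or replicate 1 of differentiating KO MSCs (0.0917). Before induction the call was lost without replicate 2 of undifferentiated WT MSCs (0.0565) or either undifferentiated KO library (0.054 and 0.0533).

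*B2m* (chr2:122147686-122153083), which encodes the light chain of every class I molecule, had the highest level of the members. It was at 342 and 367 RPKM in undifferentiated WT, 435 and 459 RPKM in differentiating WT, 275 and 296 RPKM in undifferentiated KO and 608 and 505 RPKM in differentiating KO MSCs. The genotypes did not overlap in either state, with KO the lower before induction and the higher after it. Before induction the log2 difference was -0.31 (adjusted p = 0.0539), which missed the threshold, and after it 0.31 (adjusted p = 0.0456). That call was lost without either differentiating WT library (adjusted p = 0.174 and 0.116) or without replicate 1 of differentiating KO MSCs (0.112). With induction *B2m* rose 1.26-fold in WT and 1.94-fold in KO MSCs, and the interaction was 0.62 on the log2 scale (adjusted p = 0.0153). Leaving out replicate 2 of undifferentiated WT, replicate 1 of differentiating WT or replicate 1 of undifferentiated KO MSCs took the interaction to 0.0564, 0.0536 and 0.0592, and leaving out any of the 4 WT libraries took the WT rise past the threshold as well (0.0528 to 0.111).

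*H2-L*, which carries the symbol of a class I heavy chain close to *H2-D1* and has no GENCODE position here, was at 5.53 and 5.28 RPKM in undifferentiated WT, 6.64 and 6.30 RPKM in differentiating WT, 3.83 and 4.55 RPKM in undifferentiated KO and 9.86 and 7.40 RPKM in differentiating KO MSCs. Neither genotype difference passed the test, and the interaction of 0.76 (adjusted p = 0.0299) was lost in each refit without 1 of the 4 WT libraries or replicate 1 of undifferentiated KO MSCs (adjusted p = 0.0696 to 0.0954). Reads can be shared between such similar genes. Of all 50-base windows of the annotated transcripts, the read length of the study, 12.8% for *H2-D1*, 9.63% for *H2-K1* and 0% for *B2m* also occur in a transcript of another gene. No share could be computed for *H2-L*, so its value cannot be set apart from that of similar genes.

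**Figure D2:**
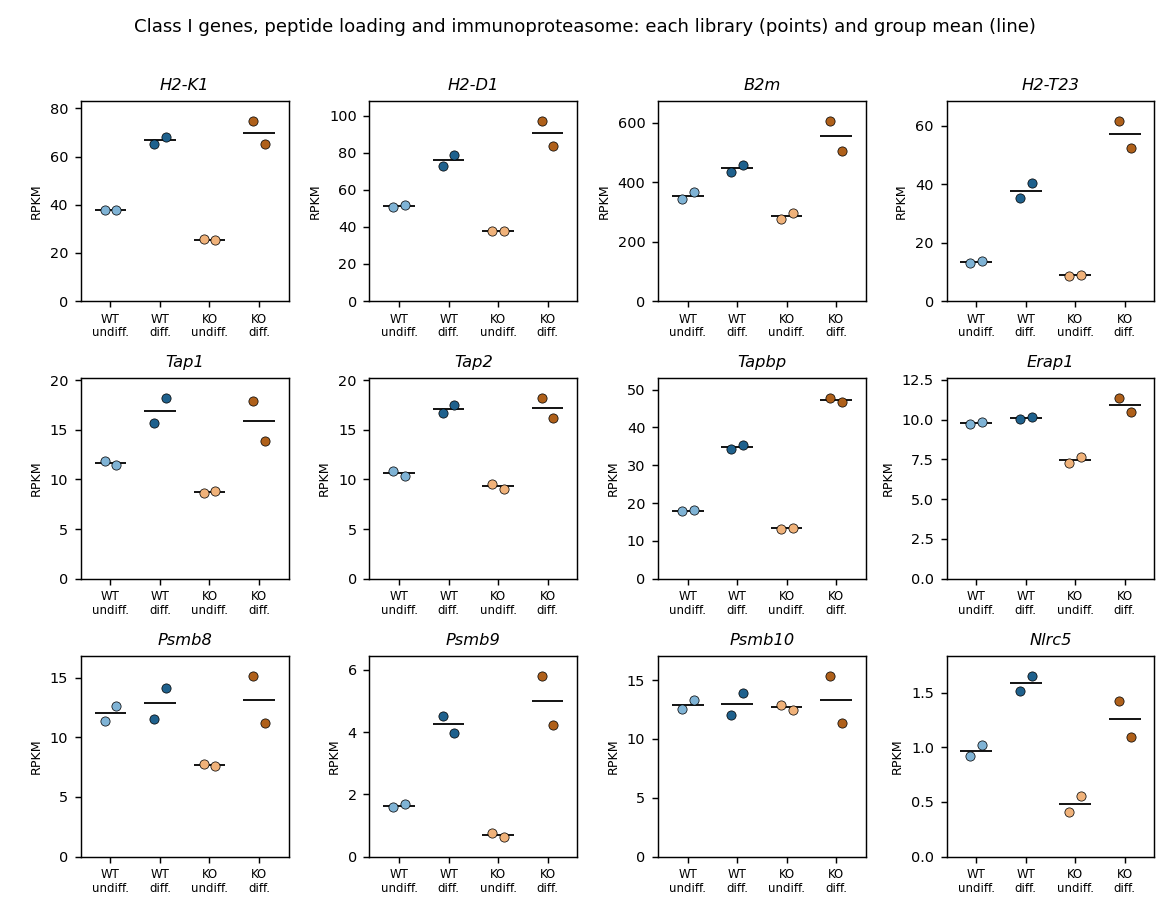
RPKM of 12 members in each of the 8 libraries (points, replicate 1 left and replicate 2 right) with the group mean (line); every axis starts at 0. Before induction the KO points of H2-K1, H2-D1, B2m, H2-T23, Tapbp and Psmb9 lie below the WT points, after it those of H2-D1, B2m, H2-T23 and Tapbp lie above them, and the Psmb10 points of all groups overlap.

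Non-classical class I genes encode molecules of limited variation, several of which are read by natural killer cells or unconventional T cells. *H2-T23*, the mouse Qa-1 molecule that presents leader peptides of other class I chains, had the largest rise with induction among those with means above 1 RPKM. Its libraries were at 13.1 and 13.7 RPKM in WT against 8.49 and 8.99 in KO MSCs before induction, and 35.2 and 40.2 RPKM in WT against 61.7 and 52.3 in KO MSCs after it. No groups overlapped. KO was lower before induction (log2 fold change -0.61, standard error 0.10, adjusted p = 0.00662) and higher after it (0.59, standard error 0.10, adjusted p = 0.00589). With induction *H2-T23* rose 2.79-fold in WT and 6.44-fold in KO MSCs, an interaction of 1.21 (adjusted p = 0.00191).

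*Cd1d1* on chromosome 3, which presents lipids to NKT cells, crossed in the same way. It was at 2.95 and 3.31 RPKM in undifferentiated WT, 2.15 and 2.1 in undifferentiated KO, 4.94 and 4.58 in differentiating WT and 9.01 and 9.99 in differentiating KO MSCs. The KO libraries were all below the WT libraries before induction and all above them afterwards, with log2 differences of -0.54 (adjusted p = 0.00557) and 0.98 (adjusted p = 0.000933). Its rise was 1.5-fold in WT and 4.31-fold in KO MSCs, with an interaction of 1.52 (standard error 0.11, adjusted p = 0.000752). *Cd1d1* shares 19.1% of its windows, all with *Cd1d2*.

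*H2-M3*, which presents formylated peptides, was at 4.36 and 5.07 RPKM in WT against 3.92 and 3.48 in KO MSCs before induction, and 8.45 and 8.94 RPKM in WT against 11.8 and 10.6 in KO MSCs after it. The genotypes did not overlap in either state. Its interaction was 0.70 (adjusted p = 0.0114), while the genotype calls of -0.34 (adjusted p = 0.0446) and 0.36 (adjusted p = 0.0323) did not survive a change of libraries. Before induction the call was lost without replicate 2 of undifferentiated WT MSCs (adjusted p = 0.194), or replicate 1 (0.0742) or 2 (0.199) of undifferentiated KO MSCs. After induction it was lost without replicate 1 (0.134) or 2 (0.094) of differentiating WT or replicate 1 (0.126) or 2 (0.0518) of differentiating KO MSCs.

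*H2-T22*, a molecule recognised by some gamma-delta T cells, went the other way. It was at 12.3 and 12.5 RPKM in undifferentiated WT, 13.9 and 13.4 in undifferentiated KO, 18.7 and 21.5 in differentiating WT and 16.0 and 15.8 in differentiating KO MSCs. After induction it was lower in KO (log2 fold change -0.33, standard error 0.06, adjusted p = 0.0104), and it rose 1.61-fold in WT and 1.17-fold in KO MSCs, an interaction of -0.47 (adjusted p = 0.0104). The call between genotypes was lost in a fit to the 4 differentiating libraries alone (adjusted p = 0.0533). The rise in KO was lost with median centring (0.0995) and when any of the 4 KO libraries was left out (adjusted p = 0.0575 to 0.0992). *H2-T22* shares 34.5% of its windows with other genes, 31.2% with *H2-T10* alone, so that the reads of these genes may have been split between them. *H2-T22* and *H2-T23* lie close together (chr17:36037128-36042747 and chr17:36029773-36032855), and both have the interferon response motif printed or counted above.

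*H2-T9*, *H2-Q4* and *H2-T24* had means above 1 RPKM and no call between genotypes. *H2-T9* was at 3.87 and 4.62 RPKM in undifferentiated WT, 6.89 and 7.75 RPKM in differentiating WT, 2.08 and 2.40 RPKM in undifferentiated KO and 13.5 and 6.57 RPKM in differentiating KO MSCs. The last pair differed by more than its distance to WT, and only the rise with induction in KO was called (4.08-fold, adjusted p = 0.00138). *H2-Q4* was at 2.44 and 1.72 RPKM in undifferentiated WT and at 3.20 and 3.92, 2.06 and 2.08, and 4.54 and 4.16 RPKM in the differentiating WT, undifferentiated KO and differentiating KO libraries. It rose 1.7-fold in WT and 2.05-fold in KO MSCs. The WT call was lost without replicate 2 of differentiating WT MSCs (adjusted p = 0.0549). *H2-T24* alone among these fell with induction, in KO from 2.22 and 1.83 to 1.15 and 1.22 RPKM (log2 fold change -0.72, adjusted p = 0.00185). In WT it was at 1.89 and 1.75 and then 1.35 and 1.58 RPKM, which did not pass (adjusted p = 0.0671).

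Some low genes carried calls. *H2-M9* was at 0.049 and 0.212 RPKM in undifferentiated WT, 0.794 and 0.942 RPKM in differentiating WT, 0.100 and 0.122 RPKM in undifferentiated KO and 0.433 and 0.318 RPKM in differentiating KO MSCs, with rises of 2.16 (adjusted p = 0.00232) and 1.16 (adjusted p = 0.0243) on the log2 scale. Its KO call was lost without replicate 1 of differentiating KO MSCs (0.111), replicate 1 of undifferentiated KO MSCs (0.0969) or replicate 2 of undifferentiated KO MSCs (0.0704). *H2-M1* was the 1 member called higher in undifferentiated KO MSCs, at 0.299 and 0.291 RPKM against 0.098 and 0.141 RPKM in WT (log2 fold change 0.86, adjusted p = 0.0152), a call lost without replicate 1 of undifferentiated WT (0.0602) or replicate 1 (0.069) or 2 (0.0613) of undifferentiated KO MSCs. It fell in KO to 0.095 and 0.121 RPKM (log2 fold change -0.93, adjusted p = 0.00338) and was at 0.161 and 0.140 RPKM in differentiating WT MSCs, an interaction of -1.12 (adjusted p = 0.0156). Before induction *H2-K2* is listed at 0 in KO replicates 1 and 2. It was at 0.018 and 0 RPKM in undifferentiated WT, 0.120 and 0.121 RPKM in differentiating WT and 0.549 and 0.576 RPKM in differentiating KO MSCs. At the estimated depth 3 reads on its transcript would give 0.0329 to 0.0455 RPKM, a floor for counting error only, so the levels before induction were not detectable. After induction *H2-K2* was higher in KO (log2 fold change 1.59, adjusted p = 0.00195), a value that ran from 0.48 to 2.13 over the alternative settings.

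The genes of peptide loading fell into 2 groups. *Tapbp* (tapasin, chr17:33915899-33929292) and *Erap1*, which trims peptides in the endoplasmic reticulum, differed between genotypes and had an interaction. *Tapbp* was at 17.8 and 18.2 RPKM in WT against 13.3 and 13.3 in KO MSCs before induction, and 34.3 and 35.3 RPKM in WT against 47.7 and 46.8 in KO MSCs after it. The groups stood well apart, and the log2 difference of KO from WT was -0.43 (standard error 0.03, adjusted p = 0.000539) before and 0.44 (standard error 0.03, adjusted p = 0.000701) after induction. It rose 1.93-fold in WT and 3.53-fold in KO MSCs, an interaction of 0.87 (adjusted p = 0.0003).

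*Erap1* was at 9.69 and 9.87 RPKM in undifferentiated WT, 10.0 and 10.2 RPKM in differentiating WT, 7.30 and 7.63 RPKM in undifferentiated KO and 11.3 and 10.5 RPKM in differentiating KO MSCs. It was 1.31-fold lower in undifferentiated KO MSCs (adjusted p = 0.0033) and rose with induction in KO (1.45-fold, adjusted p = 0.000106), while the WT change of 0.05 on the log2 scale did not pass (adjusted p = 0.418). The interaction was 0.49 (adjusted p = 0.00351).

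*Tap1* and *Tap2*, the 2 chains of the peptide transporter, and *Tapbpl*, a tapasin relative that edits peptides, rose with induction in both genotypes and had no genotype or interaction call. *Tap1* was at 11.8 and 11.5 RPKM in undifferentiated WT, 8.65 and 8.81 in undifferentiated KO, 15.7 and 18.2 in differentiating WT and 17.9 and 13.9 in differentiating KO MSCs. The KO libraries lay below WT before induction, by 0.41 on the log2 scale at an adjusted p of 0.0532, and overlapped with WT after it (log2 difference -0.10, adjusted p = 0.575). *Tap1* rose 1.45-fold in WT (adjusted p = 0.0112) and 1.8-fold in KO MSCs (adjusted p = 0.00117), the former lost without replicate 2 of undifferentiated WT (0.0586) or of differentiating WT MSCs (0.0661). *Tap2* was at 10.9 and 10.4, 16.7 and 17.5, 9.57 and 9.02, and 18.2 and 16.2 RPKM in undifferentiated WT, differentiating WT, undifferentiated KO and differentiating KO MSCs. It rose 1.6-fold in WT and 1.84-fold in KO MSCs, and its log2 differences of KO from WT were -0.19 (adjusted p = 0.0693) and 0.01 (adjusted p = 0.965). *Tapbpl* was at 3.19 and 3.19 RPKM before and 5.14 and 5.69 RPKM after induction in WT, and at 3.34 and 3.01 and then 4.91 and 4.23 RPKM in KO MSCs.

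With induction 4 of the 5 loading genes rose in WT and 5 of 5 in KO MSCs, where 31.6% and 36.4% of all genes were called higher. Other genes of class I folding and trimming went in both directions. *Calr* and *Canx*, chaperones of the heavy chain, fell with induction in both genotypes, *Pdia3*, a further one, rose in WT by 0.16 on the log2 scale and fell in KO MSCs, and *Lnpep*, an aminopeptidase of endosomal vesicles, rose in both (by 0.65 and 0.61). In differentiating cells *Calr* (584 and 623 RPKM in WT, 470 and 383 RPKM in KO), *Canx* (196 and 200 RPKM, 168 and 144 RPKM) and *Pdia3* (167 and 163 RPKM, 119 and 108 RPKM) were lower in KO, with log2 differences of -0.51, -0.35 and -0.54. *Pdia3* was the 1 of the 4 called before induction, where it was higher in KO by 0.28 (adjusted p = 0.011).

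Immunoproteasome genes did not move as a group. *Psmb9*, the inducible beta1 subunit that shares its promoter region with *Tap1*, was the DEG of undifferentiated cells. It was at 1.59 and 1.68 RPKM in WT against 0.757 and 0.636 in KO MSCs before induction, and 4.53 and 3.97 RPKM in WT against 5.80 and 4.22 in KO MSCs after it. The genotypes were apart before induction, by 2.18-fold (log2 fold change -1.13, standard error 0.16, adjusted p = 0.00512), and overlapped after it (0.22, adjusted p = 0.328). *Psmb9* rose 2.5-fold in WT and 6.36-fold in KO MSCs, an interaction of 1.35 (standard error 0.23, adjusted p = 0.00675).

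*Psmb8*, the inducible beta5 subunit, was at 11.4 and 12.6 RPKM in undifferentiated WT, 7.79 and 7.57 in undifferentiated KO, 11.5 and 14.2 in differentiating WT and 15.1 and 11.2 in differentiating KO MSCs. It was 1.55-fold lower in KO before induction (adjusted p = 0.029), and this call was lost when any library of these 2 groups was left out, with adjusted p-values of 0.0781 and 0.139 without WT replicate 1 or 2 and 0.107 and 0.125 without KO replicate 1 or 2. After induction the log2 difference was 0.02 (adjusted p = 0.924). It rose in KO (1.69-fold, adjusted p = 0.00565) and the WT change of 0.09 did not pass (adjusted p = 0.641), but the interaction of 0.66 did not pass either (adjusted p = 0.0628). *Psmb10*, the inducible beta2 subunit, stayed between 11.3 and 15.3 RPKM in all libraries, at 12.5 and 13.3, 12.1 and 13.9, 12.9 and 12.4, and 15.3 and 11.3 RPKM in undifferentiated WT, differentiating WT, undifferentiated KO and differentiating KO MSCs. Its log2 differences of KO from WT were -0.03 and 0.03 and those of induction 0.00 and 0.06, with adjusted p-values of 0.742 to 0.987.

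*Psme1* and *Psme2* encode the alpha and beta chains of the PA28 activator, which opens the proteasome. *Psme1* was at 35.9 and 37.1 RPKM in WT against 34.5 and 35.6 in KO MSCs before induction, and 53.8 and 56.8 RPKM in WT against 67.7 and 62.1 in KO MSCs after it. It rose 1.51-fold in WT and 1.85-fold in KO MSCs and was higher in differentiating KO than WT by 0.23 on the log2 scale (adjusted p = 0.0164), a call lost without replicate 1 of differentiating WT MSCs (0.0818). Its interaction of 0.29 (adjusted p = 0.0253) was lost without any of 5 libraries: replicates 1 and 2 of undifferentiated WT (0.0565 and 0.0827), replicate 1 of differentiating WT (0.0783) and replicates 1 and 2 of undifferentiated KO MSCs (0.0867 and 0.0603). *Psme2* was at 67.5 and 70.4, 59.2 and 62.9, 58.0 and 58.1, and 62.5 and 49.6 RPKM in the same order of groups as *Psmb10*. It had no call, with log2 differences from -0.25 (KO against WT before induction, adjusted p = 0.121) to 0.12 (interaction, adjusted p = 0.568). *Psme2* shares 28.3% of its windows, all with *Psme2b*.

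The constitutive proteasome counterparts moved in the opposite direction with induction. *Psmb5*, *Psmb6* and *Psmb7*, the catalytic subunits that the inducible ones replace, and the activators *Psme3* and *Psme4* all fell in both genotypes, with median log2 changes of -0.49 in WT and -0.77 in KO MSCs. Over all genes 32.8% were called lower in WT and 36.6% in KO MSCs. In differentiating cells all 5 were lower in KO than in WT, where 22.9% of all genes were called lower. The log2 differences ran from -0.34 (*Psmb5*) to -0.17 (*Psme3*), although the interaction passed for *Psme3* only (-0.29, adjusted p = 0.005). *Psmb6*, the counterpart of *Psmb9*, was at 148 and 157 RPKM in undifferentiated WT, 96.6 and 101 RPKM in differentiating WT, 146 and 146 RPKM in undifferentiated KO and 85.4 and 73.6 RPKM in differentiating KO MSCs. Before induction only *Psme3* was called between genotypes, higher in KO by 0.12.

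*Nlrc5* on chromosome 8, the activator of class I promoters, was expressed at a low level. It was at 0.917 and 1.02 RPKM in undifferentiated WT, 0.406 and 0.559 in undifferentiated KO, 1.52 and 1.65 in differentiating WT and 1.43 and 1.09 in differentiating KO MSCs. KO was lower in both states without overlap, by 0.89 on the log2 scale before induction (standard error 0.17, adjusted p = 0.0132) and by 0.32 after it, which did not pass (adjusted p = 0.19). The first call was lost without replicate 2 of undifferentiated WT (0.0769) or replicate 1 of undifferentiated KO MSCs (0.0637). *Nlrc5* rose 1.58-fold in WT (adjusted p = 0.0163) and 2.34-fold in KO MSCs (adjusted p = 0.000887), and the interaction of 0.56 did not pass (adjusted p = 0.119). The WT call was lost without replicate 1 of undifferentiated WT (0.0787) or without replicate 1 (0.0507) or 2 (0.0804) of differentiating WT MSCs. *Ciita*, the class II activator, stayed between 0.024 and 0.122 RPKM and was not tested.

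The factors that bind the class I and II promoters were also compared between genotypes. Of 8 tested genes (*Rfx5*, *Rfxap*, *Rfxank*, *Nfya*, *Nfyb*, *Nfyc*, *Creb1* and *Atf1*), 1 was called higher in undifferentiated KO MSCs (*Nfya*, by 0.18) and 1 in differentiating KO MSCs (*Rfxank*, by 0.50). Over all genes 14.7% and 17.8% were called higher. None of the 8 was called lower, where 17.5% and 22.9% of all genes were. With 8 genes these counts are too small to be set apart from the shares over all genes. Among 13 genes of interferon-gamma signalling, *Ifng* itself is listed at 0 in all libraries, and 11 were tested. Before induction 5 were called lower in KO (*Irf9*, *Socs3*, *Jak2*, *Ifngr2* and *Ptpn2*) and 1 higher (*Irf2*), where 17.5% of all genes were called lower and 14.7% higher. After induction 4 were called higher (*Ifngr1*, *Irf1*, *Socs3* and *Jak2*) and 1 lower (*Ifngr2*), where the shares over all genes were 17.8% and 22.9%.

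*Ifngr1*, the ligand-binding receptor chain, was at 31.0 and 32.2 RPKM in WT against 27.7 and 29.0 in KO MSCs before induction, and 65.2 and 60.1 RPKM in WT against 100.1 and 110.7 in KO MSCs after it, an interaction of 0.90 (adjusted p = 0.0014). *Irf1*, a transcription factor of class I and immunoproteasome promoters, fell with induction in WT, from 11.0 and 11.6 to 9.09 and 9.27 RPKM, and rose in KO MSCs, from 9.84 and 10.6 to 13.0 and 12.1 RPKM (interaction 0.60, adjusted p = 0.0032).

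**Figure D3:**
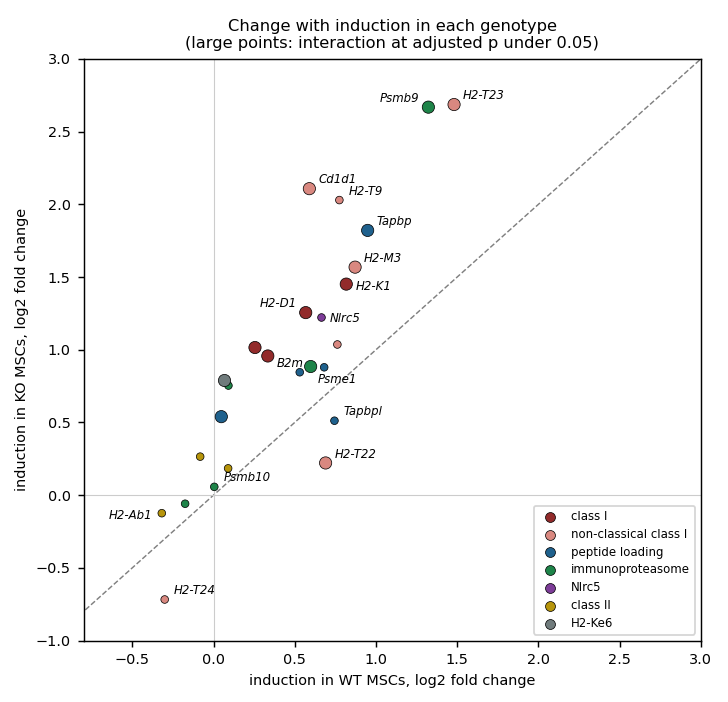
Log2 fold change with induction in WT MSCs (horizontal axis) and in KO MSCs (vertical axis) of the 26 members with a mean of at least 1 RPKM in 1 or more groups, on the log2(RPKM + 0.1) scale. Large points had an interaction at an adjusted p under 0.05, and the dashed line marks equal change: H2-T23, Psmb9, Cd1d1 and Tapbp lie above it and H2-T22 below it.

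Class II genes stood apart from class I. Of 11 class II members 5 were tested, and the level was low or near 0 for most. *Cd74*, the invariant chain that class II molecules need for transport, stayed between 0.058 and 0.239 RPKM with no call, and its log2 differences of KO from WT were -0.13 (adjusted p = 0.8) and -0.09 (adjusted p = 0.863). *H2-Aa*, the alpha chain of the I-A molecule, did not exceed 0.092 RPKM, while its partner *H2-Ab1* (chr17:34257689-34269419) was detected in every library. *H2-Ab1* was at 3.91 and 4.43 RPKM in undifferentiated WT, 2.30 and 2.34 in undifferentiated KO, 3.57 and 3.08 in differentiating WT and 2.11 and 2.14 in differentiating KO MSCs. KO was lower in both states without overlap, by 0.81 (standard error 0.09, adjusted p = 0.00221) before and 0.62 (standard error 0.09, adjusted p = 0.00397) after induction on the log2 scale. *H2-Ab1* was also the 1 member called lower with induction in WT, by 0.32 (adjusted p = 0.0212). That call was lost without replicate 2 of undifferentiated WT (log2 fold change -0.23) or of differentiating WT MSCs (-0.216).

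*H2-DMb1*, a chain of the H2-M molecule that loads peptides onto class II, was at 7.93 and 8.78 RPKM in WT against 5.47 and 4.34 in KO MSCs before induction, and 7.28 and 8.52 RPKM in WT against 5.99 and 5.77 in KO MSCs after it. It too was lower in KO in both states without overlap, with log2 fold changes of -0.76 (standard error 0.13, adjusted p = 0.00785) and -0.42 (adjusted p = 0.0434). The second call was lost when any differentiating library was left out (adjusted p = 0.0552 to 0.205), and the first without replicate 2 of undifferentiated WT MSCs (0.0542). *H2-DMb1* shares 22.7% of its windows, all with *H2-DMb2*, which did not exceed 0.033 RPKM. *H2-DMa*, the partner chain, was at 2.60 and 2.29, 2.77 and 2.44, 2.11 and 2.05, and 2.82 and 2.00 RPKM in undifferentiated WT, differentiating WT, undifferentiated KO and differentiating KO MSCs, and *H2-Eb1* at 0.278 to 0.663 RPKM. Neither had a call.

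The sum of the leukocyte markers was also lower in KO, and so were most of the markers called. Their summed level was 21.0 and 22.1 RPKM in undifferentiated WT, 11.4 and 10.4 in undifferentiated KO, 33.6 and 38.2 in differentiating WT and 14.6 and 15.7 in differentiating KO MSCs. Of the 11 tested markers 5 were called lower in KO before induction and 8 after it, where 17.5% and 22.9% of all genes were called lower. A further 2 and 1 were called higher (14.7% and 17.8% of all genes). *Itgam*, *Laptm5* and *Adgre1* passed the expression minimum only through differentiating WT MSCs, at means of 0.3241, 0.3671 and 0.3205 RPKM. The filter therefore favoured their calls against that group, which are no separate support. *Cd14* was higher in both states, by 0.78 and 0.46 on the log2 scale. *Csf1r* was higher before induction, by 0.34, and lower after it, by 0.75. *Lyz2*, *Tyrobp*, *Fcer1g*, *Laptm5* and *Adgre1* were lower in both states, and *Itgam* and *Cd68* were called lower after induction only. *Ptprc*, which encodes CD45, did not exceed 0.127 RPKM. *Lyz2*, a myeloid lysozyme, was the highest of them in every library, at 12.8 and 13.4, 22.9 and 26.4, 3.42 and 3.19, and 6.81 and 7.66 RPKM in undifferentiated WT, differentiating WT, undifferentiated KO and differentiating KO MSCs. With induction in WT MSCs 7 of the 11 tested markers were called higher and 2 lower, where 31.6% and 32.8% of all genes were. *Csf1r* fell from 1.53 and 1.43 to 0.710 and 0.698 RPKM, and *Fcer1g* from 2.46 and 2.23 to 1.67 and 1.63 RPKM. The part of leukocytes in the class II differences was not tested.

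**Figure D4:**
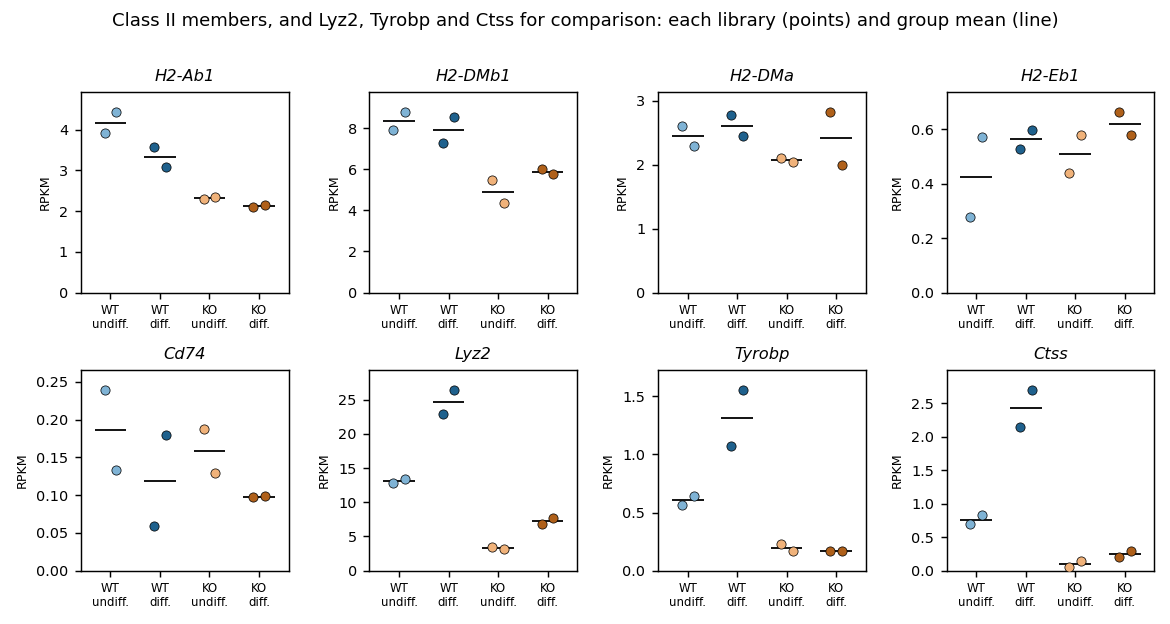
RPKM of 5 class II members and of Lyz2, Tyrobp and Ctss, which leukocytes express, in each of the 8 libraries (points, replicate 1 left and replicate 2 right) with the group mean (line); every axis starts at 0. H2-Ab1, H2-DMb1, Lyz2, Tyrobp and Ctss lie lower in KO than in WT in both states, and Lyz2, Tyrobp and Ctss rise with induction in WT. The leukocyte marker Cd14, not shown, was higher in KO in both states.

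The lysosomal proteases and transport genes of class II processing divided in the same comparison. *Ctss*, the protease that removes the invariant chain in leukocytes, was at 0.688 and 0.827 RPKM in WT against 0.054 and 0.140 in KO MSCs before induction, and 2.14 and 2.70 RPKM in WT against 0.206 and 0.297 in KO MSCs after it. It was lower in KO in both states, with log2 fold changes of -2.15 and -2.84 (adjusted p = 0.0029 and 0.0012). *Ctsl*, *Ctsb* and *Ctsd*, proteases of most cells, were lower in KO before induction (log2 fold changes of -0.59, -0.25 and -0.41) and higher after it (0.36, 0.44 and 0.18). *Lgmn* was higher in KO after induction, by 0.51, and *March8*, a ubiquitin ligase, was lower in both states. *Ifi30*, a lysosomal reductase, was higher in KO before induction by 0.25 and lower after it by 0.57. Among co-stimulatory and adhesion genes 4 of 7 were tested. *Icam1* was higher in KO in both states, at 3.09 and 3.20 against 1.69 and 1.62 RPKM before and 6.62 and 6.61 against 4.66 and 4.76 RPKM after induction, and *Cd80* was lower in differentiating KO MSCs by 0.41. *Cd86* did not exceed 0.017 RPKM.

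*H2-Ke6*, named for its place in the complex, encodes a steroid dehydrogenase and presents no antigen. It was at 5.56 and 5.10 RPKM in undifferentiated WT, 5.31 and 5.85 RPKM in differentiating WT, 4.77 and 5.09 RPKM in undifferentiated KO and 8.06 and 9.21 RPKM in differentiating KO MSCs. It was higher in differentiating KO than WT MSCs by 0.62 (adjusted p = 0.00367), with an interaction of 0.73 (adjusted p = 0.00652). Its value cannot be told apart from that of an overlapping gene, since 70.5% of its windows also occur in transcripts of *Gm20427*.

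The other genes of the chromosome 17 complex gave a comparison by position. Between 33915899 and 37483552 in mm10, 24 members and 100 other genes were tested. With induction 16 members were called higher and 2 lower in KO MSCs, whereas of the other genes 34 were called higher and 34 lower. In WT MSCs these counts were 12 and 1 for the members and 29 and 26 for the others. Before induction 9 of the 24 members and 13 of the 100 others were lower in KO, and 1 and 26 were higher. In differentiating cells the counts lay closer together, with 6 of the 24 members called higher and 3 lower in KO, and 19 and 18 of the 100 others. The medians of KO induction on the log2 scale were 0.82 over the members and 0 over the others.

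In both differentiating groups the 2 libraries differed along the members. In differentiating KO MSCs replicate 1 was above replicate 2 for 27 of the 35 tested members, by a median of 0.17 on the log2 scale, against 0.023 over all genes. In differentiating WT MSCs replicate 1 was the higher for 7 of 35, with a median of -0.11 against 0 over all genes. The undifferentiated pairs differed by medians of -0.04 and -0.001. With 2 libraries per group no outlying library could be looked for.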

How the data were processed

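RNA was measured in 8 libraries of mouse MSCs, grouped by the labels into 4 groups of 2. Ribosomal RNA had been depleted, and stranded 50-base reads were mapped by the authors to mm10 with TopHat2 2.1.0, using iGenomes gene models, and summarised by Cuffdiff (Cufflinks 2.2.1, per the submitters' processing notes); its library scaling is not given in the sources used here. The deposited table holds 1 RPKM value for each gene in each library. It has 0 columns without a sample and no columns of the authors' own comparisons.

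From these, log2(RPKM + 0.1) was computed, genes that averaged 0.1 RPKM or more were tested, and limma 3.58.1 (R 4.3.3) fitted 4 group means to all 8 libraries with a variance trend (4 residual and 1.98 prior degrees of freedom). Two-sided p-values were corrected by Benjamini-Hochberg over the 15342 genes. RPKM gives no depth directly: depth was estimated from the smallest steps of low values at 48.2 to 66.7 M scaled reads in a library, but only 69.8 to 73.4% of these values were whole within 0.05 read, too few for a count test.

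Members and lists were chosen with earlier results of these data known. Members with a group mean of at least 1 RPKM were named with all values, fold changes were given for those called between genotypes or in the interaction, a set of central genes, and the 5 largest called changes per induction and direction, and H2-M9, H2-M1 and H2-K2 follow from that rule. Of the pathway genes and leukocyte markers in the lists, those called between genotypes were named. Markers of MSCs and of endothelial cells were not named, although some of them were called. Psmb6, Lyz2, Ptprc, Ifng and Cd86 were chosen after their values were seen. GENCODE gene models of mm10 gave positions for 54 of 58 members and RefSeq on GRCm38.p6 gave promoters for 40 members (44 windows). Same-numbered libraries did not deviate together (correlations of -0.092 to 0.03 over genes). Alternatives covered the pseudocount, the expression minimum, scaling, a fit without the variance trend, the fold limit, a replicate block, the libraries fitted, each library left out in turn and, added after seeing the data, members with few shared windows. Tables and figures were made with pandas 2.3.3, numpy 2.4.6 and matplotlib 3.10.9 under Python 3.11.15.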

Additional observations from a re-analysis of the deposited data

Results flagged for a closer look

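For 15 of the 35 members tested, the change with induction differed between genotypes by the test of the interaction itself (limma, adjusted over all genes). The signed change was higher in KO for 13 and lower in KO for 2. Over all genes 19.4% and 20% were called in these directions. The values are differences of log2 changes, KO minus WT. Among class I heavy chains, classical or not, and their light chain, the change was larger in KO for *Cd1d1* (1.52), *H2-T23* (1.21), *H2-L* (0.76), *H2-M3* (0.70), *H2-D1* (0.69), *H2-K1* (0.63) and *B2m* (0.62). In loading and proteolysis it was larger for *Psmb9* (1.35), *Tapbp* (0.87), *Erap1* (0.49) and *Psme1* (0.29). The calls of *H2-L*, *B2m* and *Psme1* were lost in some refits, as given above. *H2-L* has no GENCODE position, and its value cannot be set apart from that of similar genes. For *H2-K2*, whose undifferentiated KO libraries are listed at 0, the value was 1.71. It moved with the settings from 0.49 to 2.88 and was not called with a pseudocount of 0.01 (adjusted p = 0.0574). *H2-K2* was tested only because its differentiating KO libraries lifted it over the expression minimum, which favours this call. A larger change in KO was also called for *H2-Ke6* (0.73), whose reads are shared with *Gm20427*. The value was negative for *H2-T22* (-0.47), which rose less in KO, and for *H2-M1* (-1.12), which fell in KO and had no called change in WT MSCs. Groups of 2 libraries were too small to look for an outlying library.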

How the results depend on the processing

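No called member changed direction under any alternative; the median over the members for KO against WT in differentiating cells, 0.11, came to -0.006 without replicate 1 of differentiating KO MSCs. The median for KO against WT in undifferentiated cells was -0.25, and -0.38 over members with a mean of at least 1 RPKM. With the DEG limits, the called members fell to 1 (KO against WT, undifferentiated), 1 (KO against WT, differentiating), 4 (induction in WT), 14 (induction in KO) and 5 (interaction). Leaving out 1 library at a time gave 8 to 11, 7 to 14, 13 to 16, 24 to 25 and 12 to 20 called members in the same order. The calls were 8 without replicate 2 of undifferentiated WT, 8 without replicate 1 of undifferentiated KO and 7 without replicate 1 of differentiating WT MSCs. Restricting the count to the 21 tested members with under 10% of windows shared with another gene, an alternative chosen after seeing the data, gave 9, 6, 13, 16 and 9 calls; fewer members enter this count. The replicate numbers did not pair the libraries, and the fit with the replicate block gave 11, 8, 18, 26 and 14 calls. Single calls were followed through the alternatives in which the member was tested, leaving aside the fold limit and the restriction by shared windows. Between genotypes 7 of 13 calls before induction and 6 of 12 after it were kept in all of these. With induction 13 of 18 were kept in WT and 22 of 26 in KO MSCs, and 11 of 15 for the interaction. Low members such as *H2-K2*, *H2-M1* and *H2-M9* were not tested at a mean of at least 1 RPKM. The cause of the losses was not tested. Among calls with induction, median centring ended those of *B2m* in WT (adjusted p = 0.075) and *H2-T22* in KO MSCs (0.0995), and quantile normalization those of *Nlrc5* in WT (0.0976) and of *H2-M9* (0.102) and *H2-T10* (0.186) in KO MSCs. Depth limits the 23 untested members, none of which exceeded 0.204 RPKM.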
